A study of Mus musculus with 4 samples.

Results

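The regions described here are 569 stretches of the mouse genome that carried an H3K27ac peak in cells of the E14.5 fetal limb without EGFP and in no other sorted population. Peak rows of 1 start and end were joined into intervals in each of 4 lists, and overlapping intervals of all lists were merged into 62558 union regions on chromosomes 1 to 19, X and Y. A region was kept when intervals of limb EGFP- cells overlapped it and intervals of the other 3 populations did not, when it did not touch the window of any protein-coding start site (2 kb before it and 500 bp after it), and when it was at least 400 bp wide. The 569 regions were 1.33% of the 42651 distal regions, and without the width limit 6753 distal regions (15.8%) were seen in limb EGFP- cells alone. The regions were thus chosen by measured values, the peak calls in the 4 lists and the width of the peaks, and neither these nor the lack of a promoter is a result.

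H3K27ac ChIP-seq was made from FACS-sorted EGFP+ and EGFP- cells of limbs and of trunks, with 1 library for each of the 4 populations. All fetuses were male, of G4 background and of the Col2a1-EGFP genotype, grown by tetraploid complementation from a homozygous embryonic stem cell clone in which an EGFP sensor sits upstream of Col2a1, the gene of the main cartilage collagen. Cells came from several fetuses. EGFP+ cells are those that use the Col2a1 locus, mainly chondrocytes, and the limb EGFP- fraction is what remains of the limb, a mixture of connective tissue, muscle, skin, vessel, blood and nerve cells. With 1 library per population there was no replicate error and no test between populations, and all intervals given below are exact Clopper-Pearson intervals at the 95% level that cover counting error only.

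H3K27ac is an acetylated histone residue found at active promoters and at active enhancers, the distal sequences that raise transcription of genes in cis, often over long distances. Enhancers act in particular cell types, so a peak in a sorted population marks sequences used by at least some of its cells. In the fetal limb the cells outside cartilage build dermis, tendon, muscle, vessels, nerves and skin around the skeletal elements. In a mixture of this kind, fewer cells of a type and less signal per cell cannot be told apart.

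The sorting was checked at promoters. Of all protein-coding genes, 54.4% had a promoter peak in limb EGFP+ cells and 51.6% in limb EGFP- cells. Of 34 chondrocyte genes 31 and 12 did, in the same order, of 32 skin epithelium genes 6 and 9, of 32 skeletal muscle genes 4 and 7, and of 23 dermis and loose connective tissue genes 17 and 19. The counts were equal for endothelium and pericytes (11 and 11 of 30) and blood (4 and 4 of 30), and lower in limb EGFP- cells for nerve, glia and melanocytes (11 and 9 of 26), tendon (15 and 14 of 20), osteoblasts (14 and 11 of 23) and limb patterning (31 and 19 of 41). A limb EGFP- without a limb EGFP+ promoter peak was seen at 5 skin genes, among them Grhl2 and Tfap2a, and the reverse at 2. For muscle the counts were 5, among them Tnnt1 and Tnnt3, and 2, for connective tissue 3 (Dcn, Ebf2 and Dkk2) and 1, and for endothelium 2 and 2. Most defining genes of muscle (25 of 32), skin (23 of 32) and blood (26 of 30) had no promoter peak in the limb EGFP- list. The 4 lists held 30716 to 40899 intervals, and the limb EGFP- list 34360. The limb libraries were labelled with 1 sequencing lane and the trunk libraries with another, so that lane and tissue cannot be told apart. The peak names of the trunk EGFP- list bear the replicate number 2 where its label gives 1, and the label was followed. The sources give more than 1 read length and sonicator without assigning them to libraries, and their part in the results was not tested.

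To show what the regions look like, 200 bases centred on the highest summit are given for the strongest region near the genes of 4 cell type lists and for the 2 strongest of all 569. Capitals mark 3 consensus motifs on either strand, the E-box CAGATG bound by factors such as TWIST1 and TAL1, the SOX consensus AACAAT and the NFI half-site TTGGCA, whose shares are given further on. All sequences are of the + strand of GRCm39.

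Col1a1, chr11:94787770-94787969: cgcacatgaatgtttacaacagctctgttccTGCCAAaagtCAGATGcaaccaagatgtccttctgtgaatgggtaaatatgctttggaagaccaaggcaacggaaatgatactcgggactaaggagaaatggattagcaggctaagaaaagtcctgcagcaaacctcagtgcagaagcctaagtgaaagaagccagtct
Erg, chr16:95460193-95460392: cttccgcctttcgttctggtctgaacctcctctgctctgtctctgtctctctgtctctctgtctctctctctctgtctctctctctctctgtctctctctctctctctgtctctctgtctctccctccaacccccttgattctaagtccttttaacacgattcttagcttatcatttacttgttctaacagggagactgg
Mitf, chr6:98023835-98024034: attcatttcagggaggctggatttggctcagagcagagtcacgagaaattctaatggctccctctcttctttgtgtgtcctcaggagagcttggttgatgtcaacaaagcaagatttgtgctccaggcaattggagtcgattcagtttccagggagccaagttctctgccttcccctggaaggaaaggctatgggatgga
Tnnt3, chr7:142107818-142108017: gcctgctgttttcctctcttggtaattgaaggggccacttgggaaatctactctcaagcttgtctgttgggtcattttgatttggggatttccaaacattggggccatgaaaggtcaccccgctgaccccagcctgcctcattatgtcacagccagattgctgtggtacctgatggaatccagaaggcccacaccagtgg
Klf4, chr4:55645774-55645973: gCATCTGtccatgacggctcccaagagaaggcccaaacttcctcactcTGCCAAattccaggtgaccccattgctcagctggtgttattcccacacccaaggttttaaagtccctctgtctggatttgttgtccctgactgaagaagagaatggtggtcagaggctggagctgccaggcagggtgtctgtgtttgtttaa
Ntf3, chr6:126091727-126091926: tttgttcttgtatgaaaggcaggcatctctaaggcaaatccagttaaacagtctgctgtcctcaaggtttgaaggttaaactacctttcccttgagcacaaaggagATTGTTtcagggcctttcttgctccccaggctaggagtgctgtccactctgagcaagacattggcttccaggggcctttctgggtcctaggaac

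The windows near Col1a1 and Klf4 each held 1 E-box and 1 NFI half-site, and the window near Ntf3 held 1 SOX match. The windows near Erg, Mitf and Tnnt3 held none of the 3. The window near Erg was centred on a simple repeat rich in C and T.

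Each of the 569 regions consisted of 1 limb EGFP- interval. Widths ranged from 400 to 1310 bp with a median of 472 bp, 363 regions were under 500 bp and 16 were at least 800 bp. The intervals held 1 summit in 437 regions, 2 in 125 and 3 or more in 7. Together the regions covered 288 kb.

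The −log10 p of the strongest summit ranged from 3.42 to 20.1 with a median of 6.80, against 9.69 over all limb EGFP- intervals, and 93 of the 569 regions (16.3%) were above that list median. The fold over the local background ranged from 2.09 to 6.75 with a median of 3.85, and the summits held 7 to 66 reads with a median of 16. The limb EGFP+, trunk EGFP+ and trunk EGFP- lists began at 7, 7 and 8 reads, and the lowest 5% of their intervals ended at 10, 10 and 11 reads. Of the 569 regions, 39 were above the median summit of 26 reads that each of these lists had. The lists give no signal where no peak was called, so the level of the other populations at the regions is unknown, and absence from a list means that no peak passed the authors' threshold.

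The width limit cut through a continuous range. The 71 regions of 390 to 399 bp, just outside, had a median −log10 p of 6.06, and the 53 regions of 400 to 409 bp, just inside, one of 6.49. Their median summits were 14 and 15 reads.

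**Figure D1:**
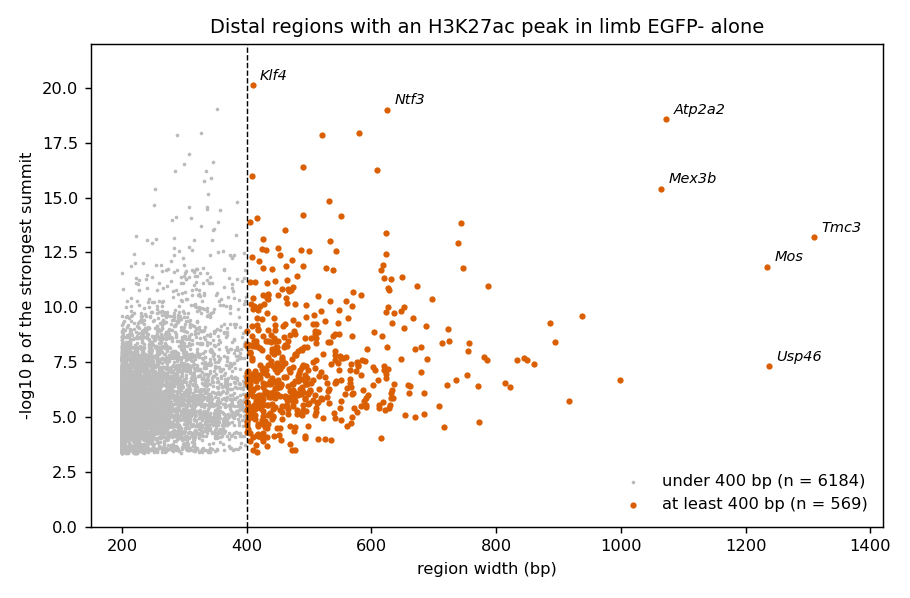
Width in bp (horizontal axis) and −log10 p of the strongest summit (vertical axis) of the 6753 distal regions with a peak in limb EGFP- cells alone, with the 569 regions of at least 400 bp in orange and the 6184 narrower ones in grey. The strongest 3 and the widest 5 are named by their nearest gene, and both width and −log10 p run on without a gap across the dashed line at 400 bp.

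The strongest region lay 113 kb upstream of Klf4, a transcription factor gene of epithelial barrier and vessel cells, at chr4:55645660-55646069. Its −log10 p was 20.1, with 40 reads (28.6 to 54.5) at the summit over a background of 6.02. It was intergenic, and the nearest peak of another list was 1881 bp away. The Klf4 promoter had a peak in all 4 populations.

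The next region, of 625 bp, lay in an intron of Ntf3, the gene of neurotrophin-3, at chr6:126091362-126091986. It reached a −log10 p of 19.0 with 36 reads (25.2 to 49.8) and lay 50.3 kb downstream of the start site. A further region followed 78.7 kb downstream with a −log10 p of 6.38 and 13 reads. It spanned 78.407 to 78.896 kb from the start site. Trunk EGFP- peaks flanked it, at 78.025 to 78.287 kb (−log10 p 7.71) and 78.915 to 79.115 kb (3.73). The Ntf3 promoter had a peak in both EGFP- populations and in neither EGFP+ population. Within 100 kb of the Ntf3 start site the limb EGFP- list held 11 intervals, the trunk EGFP- list 6, the limb EGFP+ list 2 and the trunk EGFP+ list 1.

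The third region lay in an intron of Ift81, 25.9 kb upstream of Atp2a2, the gene of the SERCA2 calcium pump, at chr5:122665792-122666864. It was 1073 bp wide with 4 summits, a −log10 p of 18.6 and 41 reads (29.4 to 55.6). Regions in introns of Fbn2, which encodes the microfibril protein fibrillin 2, and of the hydrolase gene Abhd2 followed with 17.9 and 17.8. A region over an exon of Samd4 had the highest fold of all 569, 6.75, with 26 reads and a −log10 p of 16.4.

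The remaining 4 of the strongest 10 regions lay outside protein-coding genes. The region upstream of Col1a1 had a −log10 p of 16.3, the one 4.89 kb upstream of Rnf157 one of 16.0, the one 56.5 kb downstream of Mex3b one of 15.4 and the one 42.6 kb upstream of Ets2 one of 14.8. Of the 10 nearest genes, 9 had a limb EGFP- promoter peak, against 73.6% of all 518 nearest genes and 51.6% of all protein-coding genes. The exception was Rnf157, whose promoter had peaks in the other 3 populations. The gap to the nearest peak of another list was 110 bp at Rnf157 and 313 bp at Col1a1 but over 1 kb at each of the other 8, up to 47.0 kb at Mex3b.

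Width and strength picked different regions, with Atp2a2 and Mex3b in both lists. The widest region, of 1310 bp, was 278 kb upstream of Tmc3, at chr7:82938708-82940017, with a −log10 p of 13.2, and the promoter of Tmc3 had a peak in limb EGFP- cells alone. A region of 1237 bp was 186 kb downstream of Usp46 with a −log10 p of 7.33. A region of 1235 bp was 13.2 kb downstream of Mos, an oocyte kinase gene without a promoter peak in any list, with a −log10 p of 11.9.

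The regions were mostly far from promoters. By the annotation at their centre, 256 of the 569 (45.0%) were in introns, 15 (2.64%) in exons and 298 (52.4%) intergenic. The share inside a gene was 47.6% (43.5 to 51.8), against 53.0% of the 1445 regions of limb EGFP+ cells alone that were found by the same rule, 57.6% of the 721 of trunk EGFP+ cells alone, 53.2% of the 455 of trunk EGFP- cells alone and 51.9% of all distal regions. The narrower regions of limb EGFP- cells alone had nearly the same share, 47.3%.

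The median distance to the nearest protein-coding start site was 42.4 kb (35.3 to 47.8). It was 41.0 kb for the limb EGFP+ regions, 35.2 kb for the trunk EGFP+ regions, 31.3 kb for the trunk EGFP- regions and 34.5 kb for all distal regions. Of the 569 regions, 91 were under 10 kb from a start site, 160 over 100 kb and 15 over 500 kb. The annotation also places 87 of them (15.3%) over the start window of a gene that is not protein-coding, and 150 overlapped such a gene.

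The regions were spread over the genome. Chromosomes 10 and 11 held 41 and 37, or 31.4 and 30.3 per 100 Mb, chromosome 16 held 13 (13.3 per 100 Mb), X held 10 (5.90 per 100 Mb) and Y held 0. These densities are scaled by length alone and were not set beside those of all distal regions, so they may not be particular to the 569. The median gap between neighbours was 866 kb, and 498 regions had no other within 100 kb. The other 71 formed 34 groups, of which 3 had 3 regions.

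Peaks of the other populations around the regions were counted. A peak of another list lay within 1 kb of 158 regions (27.8%), within 5 kb of 225 (39.5%, 35.5 to 43.7) and within 20 kb of 419 (73.6%). The share within 5 kb was 47.1% for the limb EGFP+ regions, 46.2% for the trunk EGFP+ regions and 37.6% for the trunk EGFP- regions. For the narrower limb EGFP- regions it was 34.6%, so such neighbours were not particular to the 569. Within 5 kb of the 569 regions a trunk EGFP- peak lay at 142, a limb EGFP+ peak at 117 and a trunk EGFP+ peak at 106. Another limb EGFP- interval lay within 5 kb of 179 regions (31.5%), whereas 848 of the 1445 limb EGFP+ regions (58.7%) had another limb EGFP+ interval that close. For the trunk classes the share with another interval of their own list was 35.2% (EGFP+) and 21.5% (EGFP-).

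The promoters of the nearest genes were compared with all protein-coding genes. The 569 regions had 518 nearest genes, of which 381 (73.6%, 69.5 to 77.3) had a limb EGFP- promoter peak, against 51.6% of all 21581 protein-coding genes with a start site. The share was 63.6% for the nearest genes of the limb EGFP+ regions, 65.9% for those of the trunk EGFP+ regions and 67.1% for those of the trunk EGFP- regions. The share of these classes in their own population was higher than their limb EGFP- share, with 74.1% for limb EGFP+, 70.8% for trunk EGFP+ and 70.5% for trunk EGFP-, near the 73.6% of the 518 genes. Limb EGFP+ promoter peaks were at 385 of the 518 genes (74.3%, against 54.4% of all genes), and 322 (62.2%, against 47.4%) had a peak in all 4 populations. The genes nearest to all distal regions of at least 400 bp were closer to these values than all genes were. They stood at 65.0% for limb EGFP-, 70.6% for limb EGFP+ and 58.5% for all 4 populations. Narrower limb EGFP- regions had nearest genes with a limb EGFP- promoter peak in 61.6%.

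Promoters with a limb EGFP- and no limb EGFP+ peak were 2.02% of all genes and 2.86% of the genes nearest to all distal regions of at least 400 bp. Among the 518 nearest genes they were 32 (6.18%, 4.26 to 8.61), against 1.97% (1.24 to 2.97) for the limb EGFP+ regions, 2.21% (1.21 to 3.68) for the trunk EGFP+ regions and 3.02% for the trunk EGFP- regions. The share was 4.87% (3.61 to 6.40) for the regions of at least 400 bp that both EGFP- populations and no other had, with an interval that overlapped that of the 518 genes, and 3.68% for the narrower limb EGFP- regions. In 11 of the 32 the limb EGFP- peak was the only one of the 4 populations. The reverse, a limb EGFP+ peak without a limb EGFP- peak, was found at 36 of the 518 genes (6.95%). It was found at 140 of 1117 genes (12.5%) nearest to the limb EGFP+ regions, against 4.83% of all genes. For the genes nearest to all distal regions of at least 400 bp the share was 8.51%. Promoter peaks were not used by the rule, but they come from the same libraries.

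The 32 genes are of several cell types, and those named here were chosen after their values were seen. They include Ntf3, Musk, the muscle-specific kinase of the nerve-muscle junction, and Nes, the intermediate filament nestin. Alox5ap, the 5-lipoxygenase activating protein, and Ly86, which encodes the MD-1 protein of immune cells, were also among them. So were the proteases Adamts9 and Mmp19, the growth factor gene Fgf18, the iron exporter Slc40a1 and the transcriptional repressor Hic1. The strongest regions among them after Ntf3 were nearest to Gpr20 (−log10 p 14.1, 24.9 kb), Tmc3, and Ablim1 (11.9, 33.1 kb), an actin-binding LIM protein gene.

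**Figure D2:**
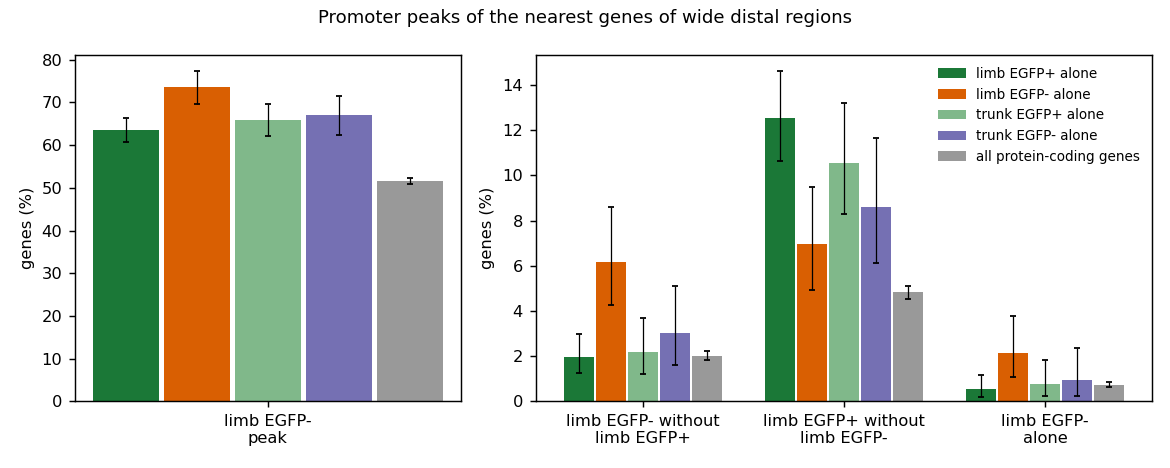
Share of genes (vertical axes, %) with a promoter peak in limb EGFP- cells (left) and with 3 patterns of promoter peaks (right), for the nearest genes of the wide distal regions of each population alone and for all protein-coding genes. Bars are shares and error bars exact 95% intervals. The genes nearest to the limb EGFP- regions stand at 73.6% on the left and at 6.18% for a limb EGFP- without a limb EGFP+ peak, where the other groups drawn lie between 1.97% and 3.02%.

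Gene lists of 10 cell types and tissues were set beside the regions. A gene counted when a region lay within 100 kb of one of its start sites, which held for 1054 of 21581 protein-coding genes (4.88%). The lists hold 20 to 41 genes, and each share is set beside the background of its own class.

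Among the 10 lists, dermis and loose connective tissue genes had the highest share, 8 of 23 (34.8%, 16.4 to 57.3). The limb EGFP+ regions reached 3 of 23 (13.0%, 2.78 to 33.6, background 10.4%), the trunk EGFP+ regions 2 (8.70%, background 6.42%) and the trunk EGFP- regions 1 (4.35%, background 4.68%). The intervals of the shares for limb EGFP- and limb EGFP+ overlapped. Regions of at least 400 bp shared by both EGFP- populations only, a class added after the values were seen, reached 10 of 23 (43.5%, background 10.2%). The narrower limb EGFP- regions reached 20 of 23 (87.0%, 66.4 to 97.2, background 35.4%), so the high share was not particular to the wide regions.

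Of the 8 genes, 4 encode fibrillar or beaded collagens. The region 39.3 kb upstream of Col1a1, the α1 chain of type I collagen, lay at chr11:94787422-94788030 and had 34 reads (23.5 to 47.5). The region 67.5 kb upstream of Col5a1 had 27 reads and a −log10 p of 10.0, and the one 38.6 kb upstream of Col5a2 had 17 reads and 8.19. Both genes encode chains of type V collagen, which joins type I collagen in fibrils. The region near Col6a1, 57.7 kb downstream, was among the weaker ones, with 4.08, and its nearest gene was the neighbouring Col6a2.

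The other 4 encode a matrix protein and regulators. The region 38.5 kb downstream of Tgfbi, a secreted matrix protein gene induced by TGF-β, had a −log10 p of 7.65. Regions lay in an intron 92.1 kb downstream of the mesenchymal homeobox gene Prrx1 (5.37), 17.9 kb downstream of Crabp1, a retinoic acid binding protein gene (4.91), and 23.0 kb upstream of the dermal bHLH gene Twist2 (3.99). Promoters of Col1a1, Col5a1, Col5a2, Col6a1 and Twist2 had a peak in all 4 populations, that of Tgfbi in all but trunk EGFP- cells, that of Prrx1 in limb EGFP+ cells alone, and that of Crabp1 in none. A peak of another list lay 16 bp from the Crabp1 region, 313 bp from the Col1a1 region and 456 bp from the Col6a1 region, and 4.77 to 29.5 kb from the other 5.

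At Col1a1 the peaks were dense in every population, with 27 limb EGFP- intervals within 100 kb of the start site, 21 trunk EGFP-, 18 trunk EGFP+ and 17 limb EGFP+. The highest −log10 p there was 45.5 in limb EGFP+ cells and 44.5 in limb EGFP- cells, both far above the 16.3 of the distal region. That region spanned −39.628 to −39.019 kb from the start site. Next to it lay another limb EGFP- interval, at −38.958 to −38.293 kb (15.7), which overlapped a trunk EGFP- peak at −38.706 to −38.443 kb (9.70).

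Skeletal muscle genes followed with 5 of 32 (15.6%, 5.28 to 32.8), and the trunk EGFP- regions reached the same number. The strongest of the 5 regions, 52.5 kb downstream of the fast troponin T gene Tnnt3, had 39 reads and a −log10 p of 10.6, and lay within Nctc1, a non-coding gene, with Mrpl23 as its nearest protein-coding gene. The region 10.1 kb upstream of Ttn, which encodes the giant sarcomere protein titin, had 15 reads and 8.47 and was the only limb EGFP- interval within 100 kb. The trunk EGFP- list held 1 interval there and both EGFP+ lists 0. A region over an exon, 45.8 kb downstream of a start site of the calcium channel gene Cacna1s and with Kif21b as its nearest gene, had 8.45. A region in an intron of Ppp1r12c near the slow troponin T gene Tnnt1 had 5.19. A peak of another list lay 130 bp from the Cacna1s region and 464 bp from the Tnnt3 region. The gap was 1650 bp at Tnnt1 and 41153 bp at Ttn. The promoters of Ttn and Cacna1s had no peak in any list.

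Endothelium and pericyte genes gave 4 of 30 (13.3%, 3.76 to 30.7), against 5 of 30 for the trunk EGFP+ regions. With a −log10 q of 5 required in all lists, or with the 20000 strongest intervals per list, it was 1 of 30 (3.33%), below the 5.96% and 5.86% of all genes. The region between Erg and Ets2, both genes of ETS factors, had the highest value, 14.8 with 24 reads, 72.8 kb upstream of Erg, an endothelial regulator. The regions 53.0 kb upstream of Flt1, a VEGF receptor gene, and, in an intron of Cep95, 45.1 kb upstream of the adhesion gene Pecam1 had 7.05 and 6.67. The Erg promoter had a peak in all populations but trunk EGFP-, and the promoters of Flt1 and Pecam1 had no peak in any list.

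Limb patterning and interdigit mesenchyme genes gave 4 of 41 (9.76%, 2.72 to 23.1), against 12 of 41 (29.3%) for the limb EGFP+ regions. The forelimb T-box gene Tbx5 had 2 regions, 55.8 kb downstream with 21 reads and a −log10 p of 12.3, and 69.0 kb upstream with 14 reads and 7.03. The latter was also within 100 kb of Tbx3, which had a further region 48.5 kb upstream at 3.51 with 7 reads. Regions in an intron 30.7 kb downstream of Etv5, a gene of the FGF response, and 14.7 kb downstream of the BMP ligand gene Bmp2 had 7.58 and 6.80. Around Tbx5 both limb lists held 10 intervals within 100 kb, the trunk EGFP+ list 1 and the trunk EGFP- list 0.

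**Figure D3:**
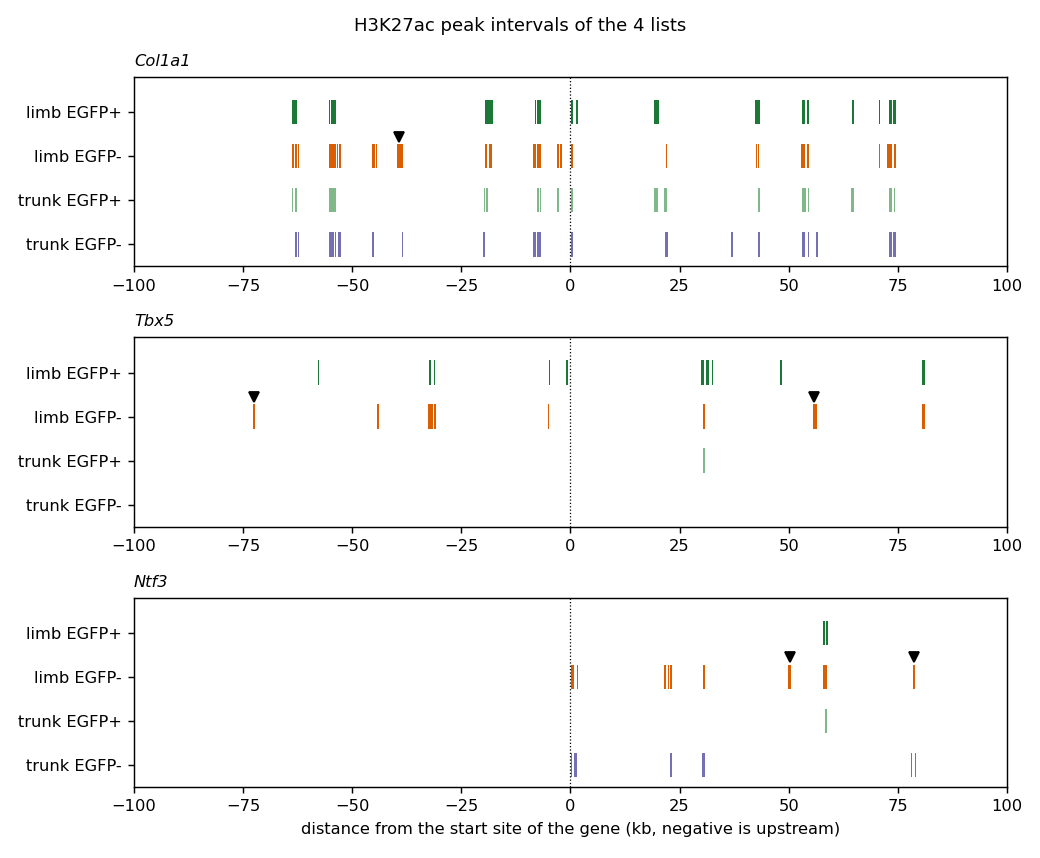
H3K27ac peak intervals of the 4 lists within 100 kb of a start site of Col1a1, Tbx5 and Ntf3, the annotated start nearest to the strongest of the 569 regions at the gene (horizontal axis, kb, negative is upstream). Each bar is an interval, drawn at least 0.35 kb wide, and triangles mark the regions in limb EGFP- cells alone of at least 400 bp. At Tbx5 both limb lists show 10 intervals and the trunk lists 1 and 0, whereas at Col1a1 all lists show 17 to 27.

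The remaining lists had 3 genes or fewer. Nerve, glia and melanocyte genes gave 3 of 26 (11.5%), namely Mitf, the master regulator of melanocytes (−log10 p 11.1, 20 reads, 55.0 kb downstream), the melanosome gene Pmel (10.0, 73.9 kb downstream, in an intron of another gene) and the neurotrophin receptor gene Ngfr (9.76, 44.1 kb upstream). The Pmel region had Mmp19, named above among the promoter genes, as its nearest gene, so both names stand for the same region. A peak of another list lay 246 bp from it. Tendon and muscle connective tissue genes gave 2 of 20 (10.0%), Thbs4 and Lox, against 7 of 20 (35.0%) for the limb EGFP+ regions. Skin epithelium gave 1 of 32, and blood and immune cells 1 of 30, Spi1.

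Chondrocyte genes gave 1 of 34 (2.94%), Comp, with the region 82.4 kb downstream in an intron of another gene. This share turned from below to above that of all genes with a −log10 q of 5 required in all lists (8.82%, against 5.96%), the 20000 strongest intervals (11.8%, against 5.86%), a width of at least 300 bp (14.7%, against 12.7%), an overlap of at least 50% counted as shared (5.88%, against 5.82%), a 500 kb window (23.5%, against 22.2%) and a width of at least 600 bp (2.94%, against 0.829%), and with a −log10 q of 5 required of limb EGFP- peaks alone (2.94%, against 1.90%). Osteoblast and perichondrium genes gave 0 of 23 (0%, up to 14.8%). The limb EGFP+ regions reached 14 of 34 (41.2%) and 7 of 23 (30.4%) of the same lists, and the trunk EGFP- regions 0 of 34 and 1 of 23. The narrower limb EGFP- regions reached 16 of 34 (47.1%) and 10 of 23 (43.5%), against a background of 35.4%. Regions of at least 400 bp shared by both EGFP- populations only reached 6 of 34 (17.6%) and 3 of 23 (13.0%), against 10.2%. The interval of the 0 of 23 contains the 4.88% of all genes, so this count cannot be told apart from that share. It stayed at 0 under 12 of 14 alternatives and reached 4 of 23 (17.4%) at most. The share of osteoblast and perichondrium genes was above that of all genes under none of them.

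**Figure D4:**
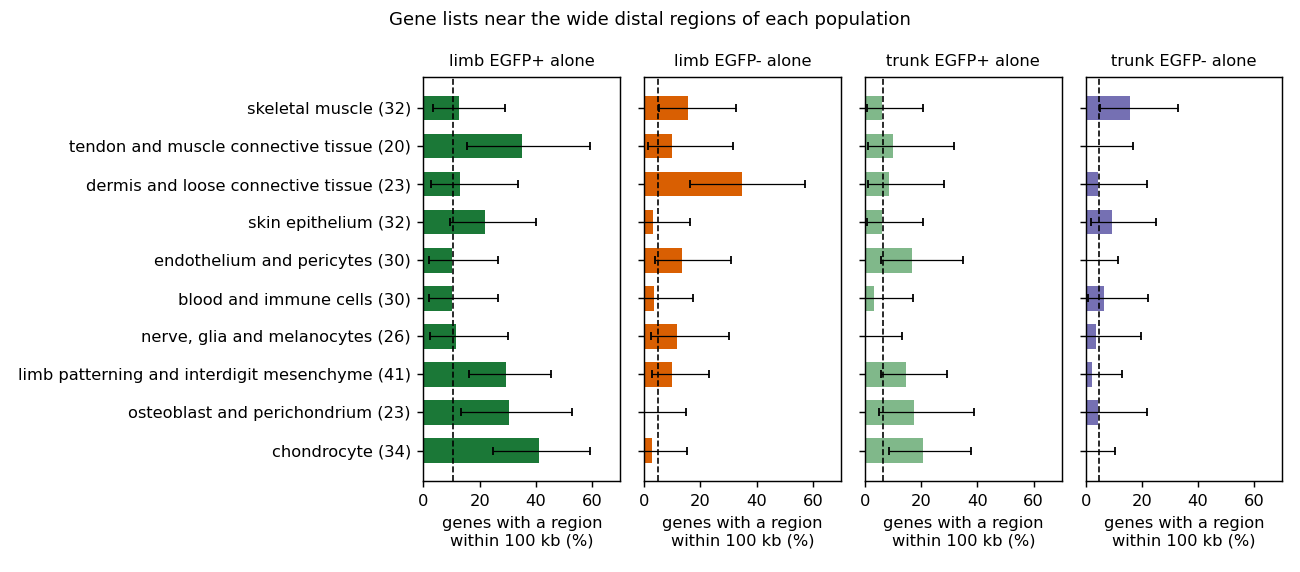
Share of the genes of 10 lists (vertical axis, with the number of genes in parentheses) that had a wide distal region of limb EGFP+, limb EGFP-, trunk EGFP+ or trunk EGFP- cells alone within 100 kb (horizontal axis, %). Bars are shares, error bars exact 95% intervals and dashed lines the share of all protein-coding genes in that class. In the limb EGFP- panel dermis and loose connective tissue stands at 34.8% over a background of 4.88%. Osteoblast and perichondrium stands at 0% there, with an interval that contains the background. Narrower limb EGFP- regions and regions shared by both EGFP- populations, which reached genes of both lists, are not drawn.

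Few genes had several regions. Within 100 kb, 982 genes had 1 region, 67 had 2 and 5 had 3. Fam169b and Pgpep1l shared 3 regions on chromosome 7, in introns of Fam169b and of the insulin-like growth factor receptor gene Igf1r, with −log10 p of 12.7, 11.2 and 4.32. Tspan5, a tetraspanin gene, had regions 4.53 and 3.77 kb downstream of a start site, at 11.0 and 9.89, and a further one 89.5 kb upstream at 8.71. Acp2, of lysosomal acid phosphatase, and Nr1h3, of the oxysterol receptor LXRα, shared 3 regions in introns of Cstpp1 and of Mybpc3, with 8.32, 8.18 and 5.22. The last of these was also the one within 100 kb of Spi1, the gene of the myeloid factor PU.1.

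Consensus motifs were counted in the 400 bp around the highest summit of each region, on both strands. The median GC content of these windows was 46.5%, against 46.8% for the limb EGFP+ regions, 48.5% for the trunk EGFP+ regions, 50.0% for the trunk EGFP- regions and 48.5% for all distal regions. A match is only a run of letters, not a bound site.

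The E-box CAGATG was the most frequent of 20 motifs, with a match in 232 of 569 regions (40.8%, 36.7 to 44.9) against 31.1% of all distal regions. It was found in 28.5% of the limb EGFP+ regions, 29.4% of the trunk EGFP+ regions and 34.3% of the trunk EGFP- regions. CAGATG was also the most frequent motif in all distal regions, the limb EGFP+ regions and the trunk EGFP+ regions. Its rank was thus not particular to the 569. The share was 36.2% in the narrower limb EGFP- regions and 40.8% in the regions shared by both EGFP- populations only. Ordered by −log10 p, 44.2% of the 190 weakest, 40.7% of the next 189 and 37.4% of the 190 strongest regions had a match. The median GC was 46.5% with and 46.8% without a match, and the share was 39.8% in introns and 41.6% between genes.

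The windows of 400 bp reached past the interval in 474 of the 569 regions, and 203 regions (35.7%) had an E-box inside the interval itself. Near the 9 gene lists other than chondrocyte the E-box was in the window of 12 of 29 regions and inside the interval of 11, and near the chondrocyte gene Comp in 1 of 1. Near dermis and loose connective tissue genes 6 of 8 regions had one inside the interval. To show the letters around it in this list, the 60 bases around the match nearest the summit are given for 4 dermis regions in which that match lies inside the interval, with the E-box in capitals (CATCTG is CAGATG on the other strand). This set was chosen after the counts were seen.

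Col5a1, chr2:27708748-27708807: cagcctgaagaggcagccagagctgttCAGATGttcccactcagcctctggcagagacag
Col5a2, chr1:45581071-45581130: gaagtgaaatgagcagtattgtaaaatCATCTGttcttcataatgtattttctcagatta
Tgfbi, chr13:56795941-56796000: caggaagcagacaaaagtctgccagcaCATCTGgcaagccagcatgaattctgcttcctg
Crabp1, chr9:54689944-54690003: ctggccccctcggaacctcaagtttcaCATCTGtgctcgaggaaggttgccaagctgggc

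In these regions the E-box lay 22 bp from the summit at Col5a1, 43 bp at Col5a2, 77 bp at Tgfbi and 66 bp at Crabp1. The window of the Twist2 region held 2 matches, of which the one nearest the summit lay outside the interval. The E-box of the Col1a1 region, printed above, lay 56 bp from its summit. The regions near Prrx1 and Col6a1 had no match.

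The SOX consensus AACAAT was found in 127 regions (22.3%, 19.0 to 26.0), against 16.4% of all distal regions, 14.7% of the limb EGFP+ regions, 14.4% of the trunk EGFP+ regions and 15.4% of the trunk EGFP- regions. The narrower limb EGFP- regions had nearly the same share, 21.8%. It was in 26.3% of the 190 weakest and 16.8% of the 190 strongest regions, and the regions with a match had a lower median GC (43.8%) than those without (47.8%). The NFI half-site TTGGCA was in 167 regions (29.3%, 25.6 to 33.3) against 23.8% of all distal regions, and in 20.9% to 24.8% of the other 3 classes.

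Another E-box, CAGCTG, the form preferred by MYOD1, was in 150 regions (26.4%, 22.8 to 30.2), close to the 26.1% of all distal regions and below the 37.8% of the trunk EGFP- regions. The TFAP2 consensus GCCNNNGGC was in 8.79% (6.59 to 11.4), against 12.8% of all distal regions and 10.0% of the limb EGFP+ regions. It was 13.1% with a −log10 q of 5 required in all lists and 12.9% with the 20000 strongest intervals per list, no longer below that 12.8%. For 14 of the 20 motifs the share of all distal regions was inside the interval of the 569 regions. The nuclear receptor half-site AGGTCA (18.5%, against 22.2%) and the CArG box of serum response factor (3.51%, against 2.06%) were outside it, besides the 4 motifs described with their values. The 14 motifs were GGAATG of TEAD factors, TGACAG of MEIS factors, AGATAA of the GATA family, ACAGGAA of ETS factors, TGANTCA of AP-1, TAATCC of PITX factors, CCCNNGGG of EBF factors, TGTGGTT of RUNX factors, TAATTA of homeobox factors, CAATAAA of posterior HOX factors, CTTTGAT of TCF/LEF factors, the motifs of p63 and MEF2, and CAGCTG. The MEIS consensus can share its last 3 letters with either E-box.

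**Figure D5:**
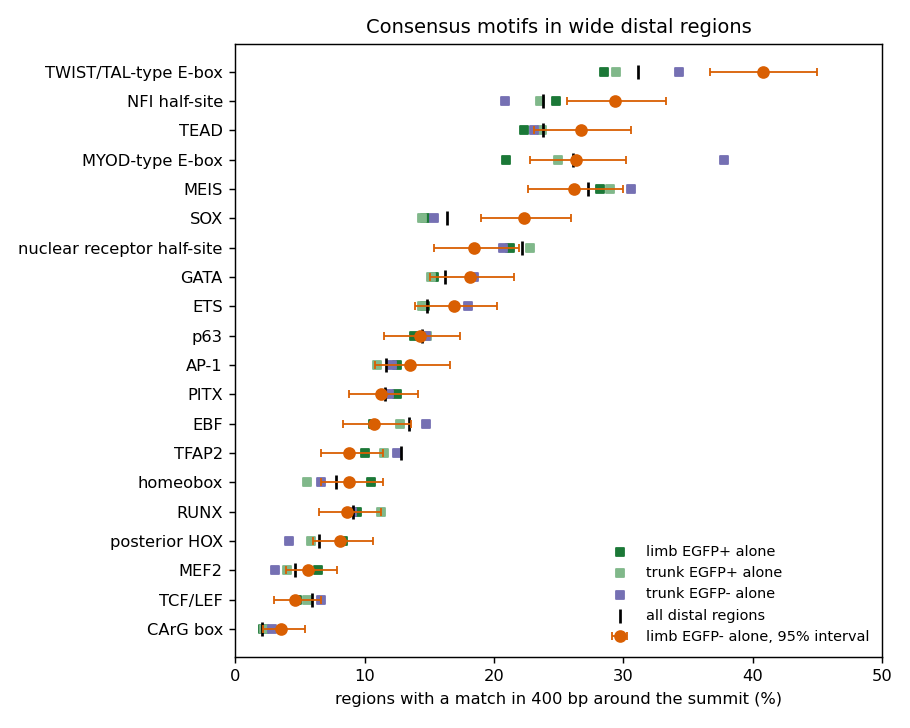
Share of wide distal regions with a match to each of 20 consensus motifs in the 400 bp around the summit (horizontal axis, %), with the motifs on the vertical axis. Orange circles with exact 95% intervals are the 569 regions of limb EGFP- cells alone, squares the classes of the other 3 populations and black ticks all distal regions. The E-box CAGATG stands at 40.8% against 31.1% of all distal regions, and SOX at 22.3% against 16.4%.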

How the data were processed

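H3K27ac ChIP-seq peak lists of 4 sorted populations of E14.5 fetuses were used, with 1 library each. The authors sampled equal numbers of reads, trimmed them with cutadapt 1.18, mapped them to GRCm39 with Bowtie2 2.3.5.1, kept a mapping quality of at least 30 with SAMtools, extended them to 200 bp and ran MACS2 2.2.7.1 on every library by itself; no control library is named in the sources used here. In the deposited lists each row is a summit with a score, which is 10 times the −log10 q without decimals. The deposited fold is a ratio of summit reads to the local background of the same library. The −log10 p and −log10 q were deposited as the authors' MACS2 gave them, and the lists begin at a −log10 q of 1.30.

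Regions were built as described in the report in Python 3.11.15 with pysam 0.24.0, pandas 2.3.3, numpy 2.4.6 and scipy 1.17.1, and plotted with matplotlib 3.10.9. An overlap of 1 bp counted. Reads and background at a summit were solved from its fold and −log10 p, to within 0.01 of the −log10 p, for 100% of the summits. The total depth of the libraries is not in the lists, so precision is given from summit reads. Start sites were those of protein-coding transcripts of 21581 genes (67388 sites) in the GENCODE annotation of GRCm39, and a gene's promoter was marked when a peak overlapped its window. Distances run from the region's middle to the nearest start site. In regions with more than 1 summit the strongest gave the values.

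Named were the 10 strongest and 5 widest regions, the bands on either side of the width limit, the genes with most regions (ties of 67 genes were not named), and up to 4 genes per list by −log10 p. The members, gene lists and motifs were chosen with earlier results of these data known. The class shared by both EGFP- populations only, further genes of the connective tissue and limb lists, the promoter genes named and the 60-base sequences were chosen after their values were seen. Some of the genes and sequences that this rule selects are not reported here. No test was made, because each population had 1 library. The rule, the read recovery and the motif search were tested on simulated data. Alternatives were peak thresholds, overlap, gap, width, promoter window, chromosomes, gene window and motif window.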

Additional observations from a re-analysis of the deposited data

How the results depend on the processing

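Of 60 values of the 5 main results under 12 alternatives, 45 stayed within 1.5 times the count or within the interval of the share or median. The number of regions was 1660 at a width of at least 300 bp and 92 at 600 bp, 219 when limb EGFP- peaks needed a −log10 q of 5 and 233 with a fold of at least 4. The median distance moved at 600 bp, to 50.4 kb, and the share inside a gene ranged from 43.5% to 50.2%. The share of nearest genes with a limb EGFP- promoter peak was 65.2% when all lists needed a −log10 q of 5, 63.2% when limb EGFP- peaks alone did, 56.5% with a fold of at least 4, 63.9% with the 20000 strongest intervals per list and 67.5% at 300 bp, where the 4 filters on peaks also remove promoter peaks. The share with another population's peak within 5 kb was 23.4% when all lists needed a −log10 q of 5, 28.8% with a fold of at least 4, 23.0% with the 20000 strongest, 49.6% when an overlap of at least 50% counted as shared and 16.3% with no other peak within 1 kb, which removes such neighbours by its construction. Leaving out regions at start sites of all annotated genes, an alternative chosen after seeing the data, gave 482 regions. Dermis and loose connective tissue genes had a higher share than all genes under each of the 14 alternatives, with 2 genes as the lowest count (8.70% against 0.829% at 600 bp, and against 1.92% with a fold of at least 4). They were 5 of 23 with no other peak within 1 kb or a 50 kb window. Limb patterning genes and nerve, glia and melanocyte genes were also above all genes under each of the 14 alternatives. Each of these 2 lists had 1 gene as the lowest count. Of 154 gene list values 64 moved by over 1.5 times and 90 did not. Endothelium and pericyte genes fell to 1 of 30 (3.33%) under 5 alternatives, and the share changed sides of that of all genes under 7 alternatives for chondrocyte, 5 for blood, 4 for tendon, 3 for skin, 2 for endothelium and 1 for skeletal muscle genes. Of 280 motif values 230 stayed within their interval, and the E-box CAGATG fell to 21.3% in 200 bp and rose to 48.0% in 500 bp, windows that hold fewer or more letters. No paired analysis was possible because each population had only replicate 1, and no replicate could be left out for the same reason.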
